A study of Mus musculus with 22 samples.

Results

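Stage III bone marrow eosinophils from mice given an antibody against interleukin 5 (anti-IL5) were compared with stage III eosinophils from mice given a control isotype antibody. The comparison rests on 6 of the 22 RNA-seq libraries of the series, 3 anti-IL5 and 3 isotype, chosen by their sample titles alone. Every mouse was a C57BL6 wild-type animal, and every mouse, the isotype group included, first received 400 ng of IL-33 intraperitoneally on each of 7 days. The anti-IL5 group then received 400 µg of anti-IL5 in each of 3 daily injections, and the isotype group received the same amount of control isotype on the same schedule, both beginning together with the last IL-33 dose. Marrow cells carrying Ly6G, CD90.2, NK1.1 or CD45R were removed, and eosinophils of 4 stages, I to IV, were sorted to a purity of at least 95%, using antibodies to CD117, CD200R3, PIR-A/B, CD55, F4/80, CD29 and Siglec-F. Age, sex and the number of animals behind a library were not given in the sources used here, so p-values measure the spread between these libraries, which may be technical. Mice without IL-33 were not analysed here.

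IL-5 is the growth factor most closely tied to eosinophils. It binds a receptor made of the IL-5-specific chain Il5ra and the shared beta chain Csf2rb, and the receptor signals through the kinase JAK2 and the transcription factor STAT5, which switches on genes for survival and a set of feedback inhibitors. In the marrow, eosinophil precursors divide, load their granules with basic proteins made in the endoplasmic reticulum (ER), and then leave the cell cycle as they mature.

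The 6 libraries held 8341704 to 12578330 reads counted to genes, against 7161264 to 14781250 over all 22, and 3 reads, the smallest number used here as a floor, corresponded to 0.262 to 0.382 CPM, the TMM-scaled count relative to the size of the library. The 10 most abundant genes took 5.302 ± 0.329% of the counts in anti-IL5 libraries and 6.601 ± 0.515% in isotype libraries (SD, n = 3 each; exact permutation test, two-sided, p = 0.1, the smallest that 3 against 3 allow). No library was a copy of another. Isotype replicate 3 had the lowest average correlation with the other libraries of the 6. It is named at many, though not all, of the counts and calls that were lost without it.

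More genes were called lower than higher under anti-IL5. Of 12387 genes tested, 163 (1.32%) were higher and 626 (5.05%) were lower in anti-IL5 libraries, 789 (6.37%) in all, at an edgeR quasi-likelihood adjusted p under 0.05. The falls were also larger: 371 of the lower genes changed by at least 1 on the log2 scale, against 52 of the higher genes, and the median log2 fold change was -1.11 among the lower calls, 0.792 among the higher calls and -0.01 over all genes tested. The 3 anti-IL5 and 3 isotype libraries did not overlap for 3224 genes (26%), a more even split of 1349 genes higher (10.9%) and 1875 lower (15.1%). Leaving out anti-IL5 replicate 3 cut the calls to 2.49% of the genes tested, leaving out isotype replicate 3 to 2.74% and leaving out anti-IL5 replicate 2 to 3.96%, with more genes lower than higher each time. A fit of the 6 libraries alone called 1.73% higher and 2.83% lower.

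The lower genes were mostly those that fall as eosinophils mature. Maturation was measured in libraries outside this comparison, isotype stage IV against isotype stage II, where 3406 genes (27.5%) were higher at stage IV and 3594 (29%) were lower. Isotype stage II had only 2 libraries. Of the 626 genes lower under anti-IL5 at stage III, 528 (84.3%) were also lower at stage IV than at stage II and 33 (5.27%) were higher. Of the 163 genes higher under anti-IL5, 135 (82.8%) were also higher at stage IV and 7 (4.29%) were lower. Across all 12387 genes the 2 log2 fold changes had a Pearson correlation of 0.334 and a Spearman correlation of 0.493, given as a description, since genes are not independent.

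Placed on a line from the mean of isotype stage II (0%) to the mean of isotype stage IV (100%), the anti-IL5 stage III libraries lay at 57.05, 62.29 and 67.16%, against 46.6, 49.94 and 39.03% for the isotype stage III libraries. The groups did not overlap. Their means were 62.2 ± 5.06% with anti-IL5 and 45.2 ± 5.59% with isotype (SD, n = 3 each), a difference of 17 percentage points and of 13.9 without isotype replicate 3 (exact permutation test, two-sided, p = 0.1, the smallest that 3 against 3 allow).

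**Figure D1:**
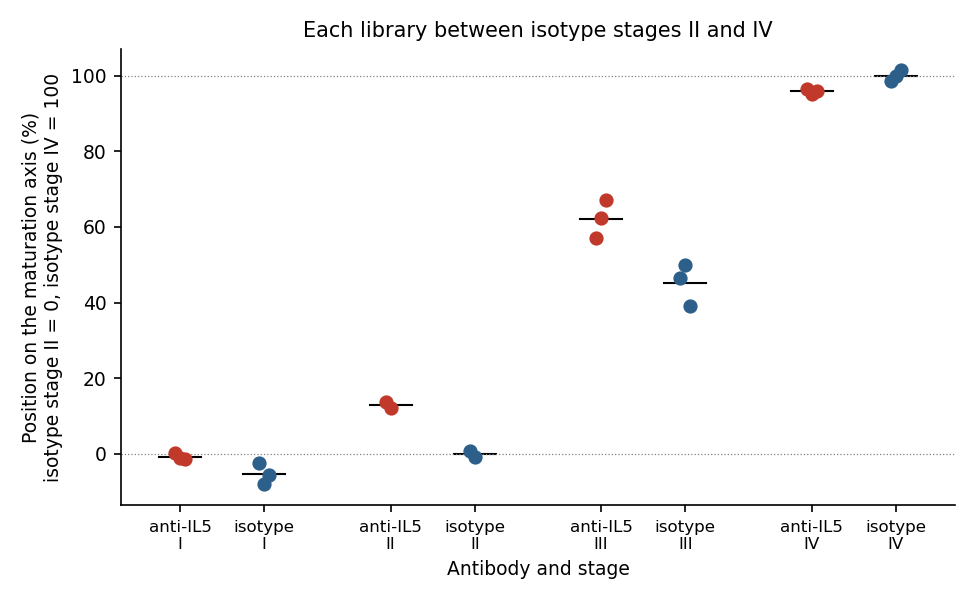
Position of each of the 22 libraries (points; black lines are group means) on the line between isotype stage II, set to 0%, and isotype stage IV, set to 100%, by antibody and stage. At stage III the anti-IL5 libraries sit at 57.05 to 67.16% and the isotype libraries at 39.03 to 49.94%.

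**Figure D2:**
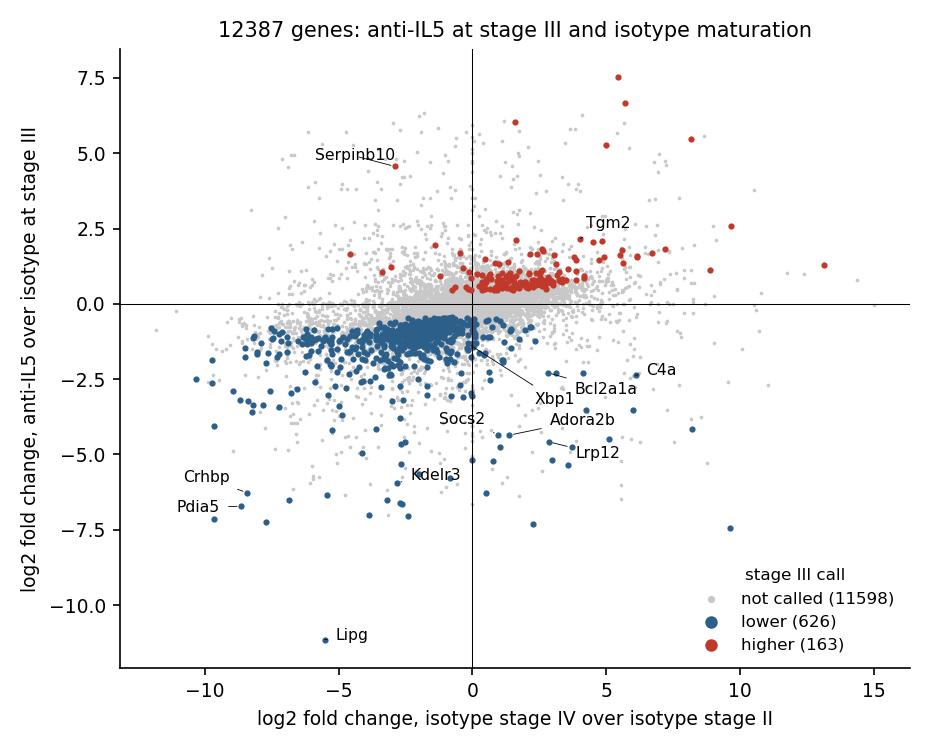
Each of 12387 tested genes by its log2 fold change from isotype stage II to IV (horizontal) and its log2 fold change, anti-IL5 over isotype, at stage III (vertical); blue points are the 626 lower calls and red points the 163 higher calls. Most blue points lie left of 0, and the labelled Lrp12, Adora2b, C4a and Bcl2a1a are among those that lie right of it.

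The libraries carried the eosinophil programme in both groups, and the traces of other cells were not equal. Summed CPM of 9 eosinophil markers were 26400 to 31600 in anti-IL5 libraries, against 42200 to 49200 in isotype libraries, with 2 of the 9 lower (Epx and Prg3). Basophil and mast cell markers summed to 572 to 639 CPM with anti-IL5, against 1120 to 1710 CPM with isotype, and 5 of the 7 tested were lower, while Tpsab1, Tpsb2 and Mcpt4 were at 0 in all 6 libraries. T, NK and innate lymphoid markers summed to 27.4 to 30.4 CPM with anti-IL5, against 94 to 234 CPM with isotype. Of these 7 markers only 2 were tested, and 5 were under 1 CPM in all 6 libraries, so few genes make up the sum. Nkg7 was the 1 lower call and Ncr1 was at 0. Neutrophil and azurophil granule markers summed to 10000 to 12400 CPM with anti-IL5, against 6670 to 10200 CPM with isotype, with 1 of 14 higher (S100a9).

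The other marker lists held no call: monocyte and macrophage markers summed to 1580 to 1760 CPM with anti-IL5 and 1700 to 2970 CPM with isotype, erythroid and megakaryocyte markers to 513 to 736 CPM and 690 to 887 CPM, B cell markers to 38 to 52.7 CPM and 40.5 to 43.8 CPM, and dendritic cell markers to 2.4 to 4.31 CPM and 1.75 to 2.91 CPM. Isotype replicate 3 had the highest basophil, lymphoid and monocyte sums. The part of these cells in the results that follow was not tested. In sorted bulk RNA, fewer cells of a type and less RNA per cell cannot be told apart.

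Among the receptor and its signalling chain, 1 gene passed the test. Of 30 tested members of the list, 0 were lower and 1 was higher (without adjustment, 10 had a p under 0.05 on the higher side and 0 on the lower side), and the median log2 fold change was 0.28. Il5ra, the chain that binds IL-5, measured 278, 418 and 358 CPM in the anti-IL5 libraries, against 238, 343 and 219 CPM in the isotype libraries. These ranges overlapped, and the log2 fold change of 0.40 ± 0.18 (SE) did not pass the test (edgeR adjusted p = 0.214). The shared chain Csf2rb averaged 343 ± 28.7 CPM with anti-IL5, against 441 ± 97.1 CPM with isotype (SD, n = 3 each; log2 fold change -0.36 ± 0.19, edgeR adjusted p = 0.283). Stat5a had a log2 fold change of 0.52 ± 0.22 (edgeR adjusted p = 0.165), Stat5b one of 0.57 ± 0.24 (edgeR adjusted p = 0.169) and Jak2 one of -0.19 ± 0.24 (edgeR adjusted p = 0.701). The 1 higher call of the list was lost without anti-IL5 replicate 2 or 3 or isotype replicate 1 or 3.

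In a list of STAT5 feedback genes and targets, several fell. Of 24 tested members of that list, 7 were lower (Cish, Socs1, Socs2, Pim1, Bcl2l1, Myc and Lipg) and 2 were higher (Bcl6 and Dusp6), with a median log2 fold change of -0.53. The list was drawn up with earlier results of these data known, and Lipg had the largest fall among the named genes. The count is thus a description. Socs1, which blocks JAK kinases in a feedback loop, measured 13.7, 8.46 and 9.35 CPM in anti-IL5 libraries, against 22.3, 47.1 and 43.9 CPM in isotype libraries. The groups were apart, and the log2 fold change was -1.85 ± 0.30 (edgeR adjusted p = 0.000829). Socs2, a feedback inhibitor of the same family, measured 0.784, 0.577 and 0.267 CPM with anti-IL5, against 6.36, 14 and 12.8 CPM with isotype, so that every anti-IL5 library was below 1 CPM. Cish, the founding member of the family, was even between anti-IL5 libraries, at 29.4, 29.2 and 30.2 CPM, against 68, 90.5 and 48.8 CPM with isotype. Its call (log2 fold change -1.22 ± 0.35, edgeR adjusted p = 0.0394) was lost without any 1 library but isotype replicate 3 (edgeR adjusted p up to 0.125).

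Pim1, a kinase that promotes survival, measured 42.7, 40.6 and 41.6 CPM with anti-IL5, against 118, 88 and 74.3 CPM with isotype. The log2 fold change was -1.17 ± 0.29 (edgeR adjusted p = 0.0169, and up to 0.075 without anti-IL5 replicate 2 or 3 or isotype replicate 1). Myc, a transcription factor that drives growth, measured 5.1, 1.92 and 2.67 CPM with anti-IL5, against 13.6, 20.9 and 22.4 CPM with isotype, with no overlap. Bcl6, a repressor that STAT5 is known to silence, went the other way: it measured 18.6, 21.2 and 17.3 CPM with anti-IL5, against 6.74, 7.43 and 4.31 CPM with isotype. Its log2 fold change was 1.62 ± 0.43 (edgeR adjusted p = 0.0262, and up to 0.126 without anti-IL5 replicate 2 or 3 or isotype replicate 1 or 3). Dusp6, a phosphatase that switches off ERK, had a log2 fold change of 1.11 ± 0.31 (edgeR adjusted p = 0.0364). The 7 lower genes of the STAT5 list became 4 without anti-IL5 replicate 2 or 3 or isotype replicate 1. Its 2 higher genes became 0 without anti-IL5 replicate 2 or isotype replicate 1 or 3, and 1 without anti-IL5 replicate 1 or 3. Several of these genes rise with maturation: Cish, Socs1, Pim1 and Bcl2l1 were higher at isotype stage IV than at stage II, and Myc and Lipg were lower.

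Survival genes were divided. Of 15 tested antiapoptotic genes, 2 were lower (Bcl2l1 and Bcl2a1a) and 1 was higher (Birc3), and of 22 tested proapoptotic genes 0 passed the edgeR test, with 1 in each direction at an unadjusted p under 0.05, 0 called by limma-voom and 1 lower by DESeq2. Bcl2a1a, a short-lived BCL2 relative that protects granulocytes, measured 3.04, 1.44 and 4.9 CPM in anti-IL5 libraries, against 16.3, 17.1 and 12.7 CPM in isotype libraries. The groups lay apart (log2 fold change -2.28 ± 0.35, edgeR adjusted p = 0.000451), but Bcl2a1a shares nearly identical copies with Bcl2a1b and Bcl2a1d, and reads may have been split between them. Bcl2a1b had a log2 fold change of -1.38 ± 0.46 (edgeR adjusted p = 0.0761). Birc3, an inhibitor of apoptosis, had a log2 fold change of 0.70 ± 0.21 (edgeR adjusted p = 0.0455, and up to 0.192 without anti-IL5 replicate 2 or 3 or isotype replicate 1 or 3). Bcl2l1, which encodes BCL-XL, measured 36.2, 23.2 and 30.2 CPM with anti-IL5, against 62.6, 54 and 42.6 CPM with isotype (log2 fold change -0.83 ± 0.24, edgeR adjusted p = 0.0421, and up to 0.162 without anti-IL5 replicate 2 or 3 or isotype replicate 1 or 2). Mcl1, another protective member of the family, measured 864, 733 and 639 CPM with anti-IL5, against 701, 600 and 729 CPM with isotype, and overlapped (log2 fold change 0.14 ± 0.21, edgeR adjusted p = 0.763).

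The protein-folding machinery of the ER held many lower calls. Of 31 tested ER chaperones and folding enzymes, 19 were lower and 0 were higher, with a median log2 fold change of -0.85, and the list summed to 3610 to 4260 CPM in anti-IL5 libraries, against 6990 to 7890 CPM in isotype libraries. Leaving out 1 library gave 14 (without anti-IL5 replicate 3) to 20 lower genes. Of 44 tested genes for ER translocation and N-glycosylation 9 were lower, and of 37 for traffic between ER and Golgi 8 were lower. Neither list held a higher call, and the traffic count was 5 without anti-IL5 replicate 3 and 6 without isotype replicate 3. Of the 19 lower chaperone genes, 18 also fell from isotype stage II to IV.

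**Figure D3:**
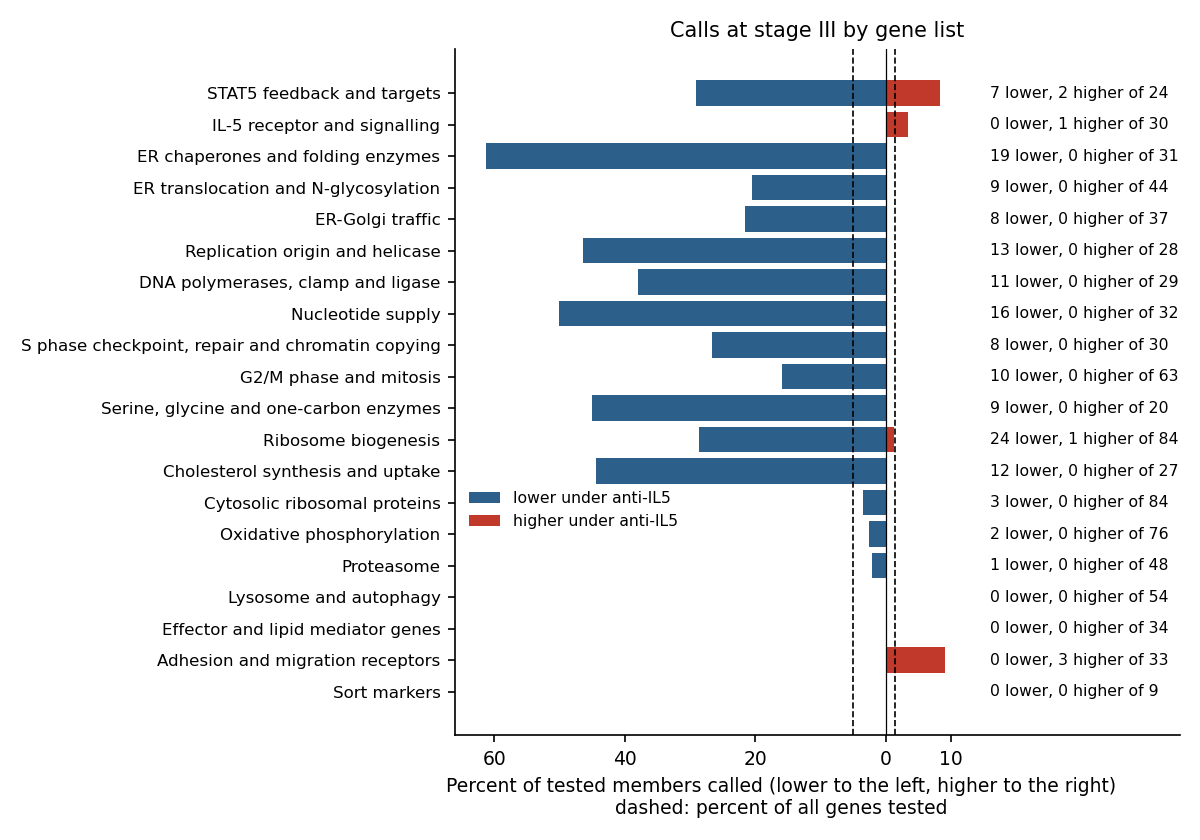
Percent of the tested members of each gene list that were lower (blue, to the left) or higher (red, to the right) under anti-IL5 at stage III, with the counts at the right; dashed lines mark the 5.05% lower and 1.32% higher calls among all genes tested. ER chaperones reach the highest lower share of the lists drawn, 19 of 31, while lysosome, effector and sort marker genes hold no call.

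Many chaperone genes carry the ER stress response element, a composite of CCAAT and CCACG with 9 bases between them, which is known to be bound by NF-Y together with ATF6 or XBP1. That motif, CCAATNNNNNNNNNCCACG searched on both strands, was found in the 250 bases before the RefSeq start (GRCm38.p6, the build of the files' mm10) of 18 of the 9792 tested genes with a promoter entry (0.184%). It was present in 7 of 24 chaperone promoters (29.2%), and those 7 genes were the same 7 lower genes that carried it among all 504 lower genes with an entry (1.39%). Of the other 11 tested genes with the motif, 1 was higher (Pan2) and 10 were not called. The choice of motif was made with these values known, and a match describes the letters only. Every tested chaperone promoter that held a match belonged to a lower gene, but 19 of all 31 tested chaperone genes were lower. Other lower chaperone genes, among them Pdia3, P4hb and Sdf2l1, had none in this window. A link between the motif and the fall was not tested. In the matches shown, capitals mark CCAAT and CCACG. Each site is written 5′ to 3′ on the strand where it reads in that order. The distance runs from the site to the gene's start.
Hspa5, chr2:34772025-34772043, plus strand, 65 bases before the start: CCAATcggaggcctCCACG
Hsp90b1, chr10:86705638-86705656, minus strand, 212 bases before the start: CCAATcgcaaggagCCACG
Hsp90b1, chr10:86705533-86705551, plus strand, 107 bases before the start: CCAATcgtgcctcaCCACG
Calr, chr8:84847075-84847093, plus strand, 162 bases before the start: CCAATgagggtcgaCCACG
Canx, chr11:50325800-50325818, minus strand, 145 bases before the start: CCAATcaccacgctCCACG
Pdia6, chr12:17266491-17266509, plus strand, 98 bases before the start: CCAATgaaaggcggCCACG
Dnajc3, chr14:118937827-118937845, plus strand, 105 bases before the start: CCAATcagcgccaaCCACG
Creld2, chr15:88819520-88819538, minus strand, 126 bases before the start: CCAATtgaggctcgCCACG

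The whole 250 bases before the start are given from RefSeq for 4 of these genes, on the gene's own strand, with the element in capitals; where it lies on the opposite strand it reads CGTGG, 9 bases, ATTGG. They show the element in both orientations, and in Hsp90b1 once in each.
Hspa5, chr2:34771840-34772089, plus strand: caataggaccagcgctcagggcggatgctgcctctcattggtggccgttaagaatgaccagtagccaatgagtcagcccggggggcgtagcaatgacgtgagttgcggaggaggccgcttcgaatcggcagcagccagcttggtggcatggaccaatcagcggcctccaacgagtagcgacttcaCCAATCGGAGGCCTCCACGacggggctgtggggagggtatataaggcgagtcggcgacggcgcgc
Hsp90b1, chr10:86705445-86705694, minus strand: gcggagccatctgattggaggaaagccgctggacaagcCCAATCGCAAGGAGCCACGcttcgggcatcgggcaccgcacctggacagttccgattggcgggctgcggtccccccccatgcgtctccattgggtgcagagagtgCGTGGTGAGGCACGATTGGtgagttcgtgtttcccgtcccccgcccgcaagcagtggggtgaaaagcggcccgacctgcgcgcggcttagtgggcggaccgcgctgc
Calr, chr8:84846932-84847181, minus strand: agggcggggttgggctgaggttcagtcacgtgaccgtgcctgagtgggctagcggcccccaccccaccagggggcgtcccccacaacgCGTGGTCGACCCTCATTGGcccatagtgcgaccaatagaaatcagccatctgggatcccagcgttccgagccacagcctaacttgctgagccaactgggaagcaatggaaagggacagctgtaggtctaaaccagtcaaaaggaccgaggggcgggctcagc
Creld2, chr15:88819396-88819645, plus strand: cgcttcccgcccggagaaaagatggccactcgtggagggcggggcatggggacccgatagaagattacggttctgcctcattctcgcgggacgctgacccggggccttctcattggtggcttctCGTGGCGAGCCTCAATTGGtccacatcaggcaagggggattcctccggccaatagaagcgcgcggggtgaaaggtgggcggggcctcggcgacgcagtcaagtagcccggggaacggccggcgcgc

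Calr, the calcium-binding lectin chaperone calreticulin, changed most among these 7 genes. It measured 111, 136 and 107 CPM in anti-IL5 libraries, against 389, 419 and 592 CPM in isotype libraries, with a wide gap between the groups (log2 fold change -1.99 ± 0.25, edgeR adjusted p = 6.74e-05). Hspa5, the master chaperone BiP, measured 559, 411 and 354 CPM with anti-IL5, against 881, 722 and 947 CPM with isotype (log2 fold change -0.95 ± 0.20, edgeR adjusted p = 0.00518, and 0.0504 without anti-IL5 replicate 3). Hsp90b1, the ER form of HSP90, measured 682, 703 and 584 CPM with anti-IL5 and did not overlap its isotype libraries at 1180, 1350 and 1030 CPM (log2 fold change -0.85 ± 0.16, edgeR adjusted p = 0.00287). Canx, calnexin, had a log2 fold change of -1.15 ± 0.28 (edgeR adjusted p = 0.0167, and 0.109 without anti-IL5 replicate 3). The disulfide isomerase Pdia6 fell by 1.20 on the log2 scale, the co-chaperone Dnajc3 fell by 0.74 and the folding factor Creld2 fell by 1.20, and these 3 calls held without any 1 library. Pdia5, another disulfide isomerase and a gene without a printed site, had 0, 0 and 2 reads in the anti-IL5 libraries, against 36, 74 and 116 reads in the isotype libraries, a 126-fold difference in CPM with a 95% counting interval of 34.4 to 1050.

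Among transcription factors known to act on ER genes, Xbp1 and Creb3l2 were lower, while Atf6 was not called (log2 fold change 0.31). Their part in the lower chaperone levels was not tested. Xbp1, a transcription factor that eosinophil precursors are known to need and that drives ER expansion, measured 96.2, 110 and 106 CPM in anti-IL5 libraries, against 255, 232 and 290 CPM in isotype libraries. Both groups were tight and far apart (log2 fold change -1.31 ± 0.14, edgeR adjusted p = 6e-06). Its level was nearly the same at isotype stages II and IV (log2 fold change -0.18, edgeR adjusted p = 0.303). Creb3l2, an ER-resident factor of the ATF6 type, measured 2.65, 5.29 and 3.12 CPM with anti-IL5, against 9.16, 10.4 and 10.8 CPM with isotype (log2 fold change -1.46 ± 0.29, edgeR adjusted p = 0.00437). With Selenos (edgeR adjusted p = 0.00733, and 0.0624 without isotype replicate 3) these were the 3 lower genes of 26 tested ER stress sensors and degradation genes. In the secretory path, the COPII coat gene Sec24d measured 17.3, 13 and 11.1 CPM with anti-IL5, against 60.7, 43.5 and 56.3 CPM with isotype (log2 fold change -1.96 ± 0.27, edgeR adjusted p = 0.000185). Rpn1, a subunit of the oligosaccharyltransferase, fell by 1.39 ± 0.22 on the log2 scale, and the cargo receptor Lman1 by 1.16 ± 0.19.

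**Figure D4:**
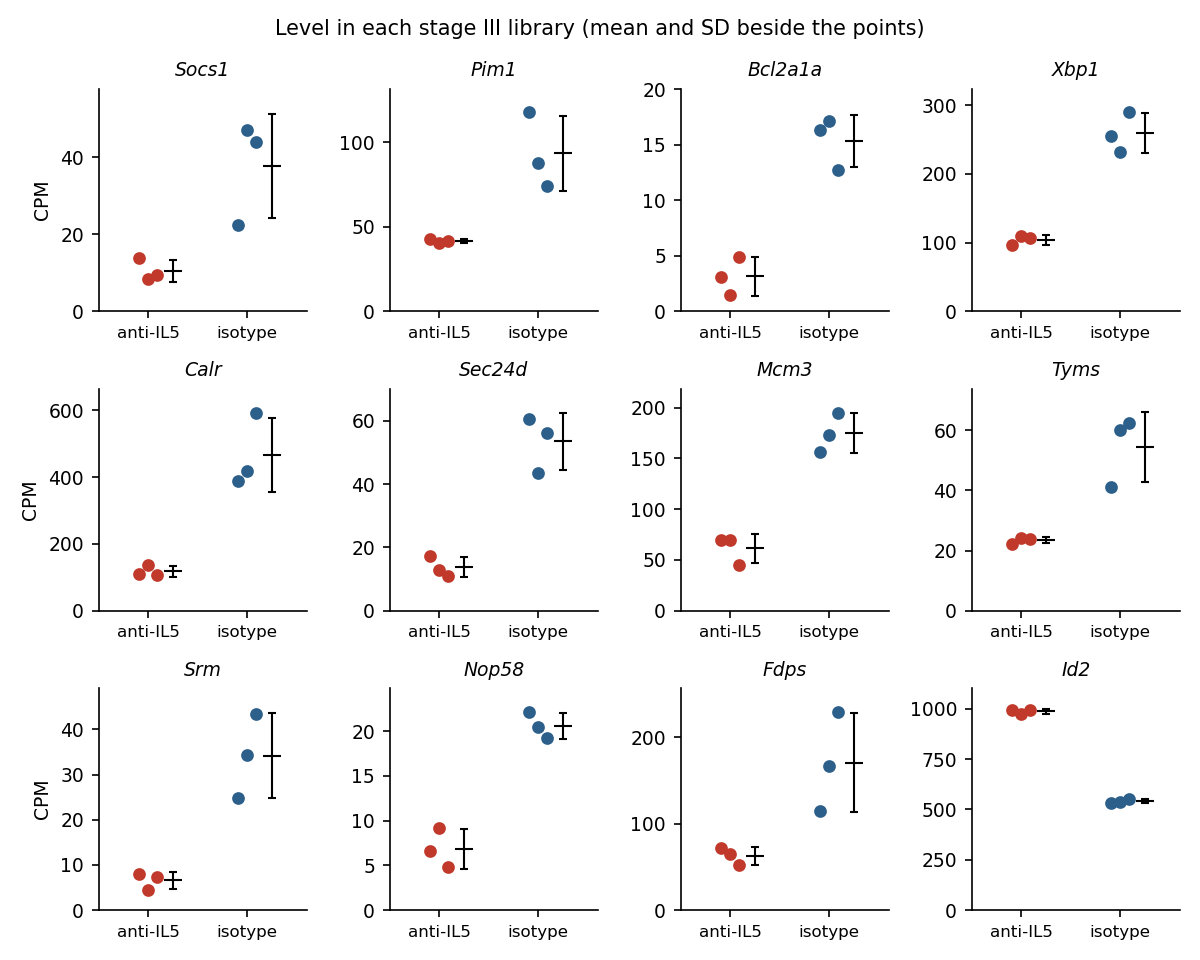
CPM of 12 genes in each of the 3 anti-IL5 (red) and 3 isotype (blue) stage III libraries, with the mean and SD beside the points; every axis starts at 0. The 12 were picked from the called genes, so their lack of overlap is no separate result. Of all 12387 genes tested, 3224 (26%) did not overlap. Xbp1 lies at 96.2 to 110 against 232 to 290 CPM and Id2 at 973 to 994 against 533 to 553 CPM.

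DNA replication genes held many lower calls, from origin firing to nucleotide supply. Of 28 tested genes for replication origins and the helicase 13 were lower, of 29 for polymerases, clamp and ligase 11 were lower, and of 32 for nucleotide supply 16 were lower, with none higher and median log2 fold changes of -0.998, -0.702 and -0.712. Summed CPM with anti-IL5 and isotype were 646 to 802 against 1240 to 1440 for the origin list and 982 to 1150 against 1410 to 1680 for the polymerase list. For nucleotide supply the sums overlapped, at 2810 to 3340 against 3010 to 3570 CPM. Every call of these 3 lists was also lower at isotype stage IV than at stage II. Mcm6, a subunit of the MCM helicase that unwinds DNA at the fork, measured 105, 94.7 and 70.1 CPM in anti-IL5 libraries, against 191, 193 and 226 CPM in isotype libraries (log2 fold change -1.18 ± 0.18, edgeR adjusted p = 0.000361). Mcm2 fell by 1.32 ± 0.22, Mcm5 by 1.20 ± 0.21 and Mcm7 by 0.98 ± 0.15 on the log2 scale, and none of these calls was lost without 1 library. Tyms, which makes thymidylate, measured 22.2, 24.2 and 23.8 CPM with anti-IL5, against 41.2, 60.1 and 62.4 CPM with isotype (log2 fold change -1.22 ± 0.19, edgeR adjusted p = 0.000546). The ribonucleotide reductase subunit Rrm2 fell by 1.30 ± 0.23 and the polymerase subunit Pold1 by 1.41 ± 0.22. The counts rested in part on 3 libraries: the origin list had 6 lower genes without anti-IL5 replicate 3 and 8 without isotype replicate 3, the polymerase list 5 and 7 (and 7 without anti-IL5 replicate 2), and the nucleotide list 10 and 9.

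Replication genes are known targets of E2F factors, which bind TTTGGCGC or TTTCCCGC. On both strands of the 250 bases before the start, 1 of these was present in 6 of 22 origin and helicase promoters (27.3%), in 6 of 22 promoters of S phase checkpoint and repair genes (27.3%), in 2 of 25 polymerase, clamp and ligase promoters (8%), in 1 of 28 nucleotide supply promoters (3.57%), in 4.37% of the 504 lower genes and in 2.68% of the 9792 tested genes with an entry, and in 0 of the 133 higher genes. Motifs named STAT5, E-box, UPRE and SRE were also searched. The STAT5 motif was in 6.15% of lower, 10.5% of higher and 6.05% of all tested genes with an entry. It was in 2 of 16 promoters of the STAT5 list, but not in those of Cish, Socs1, Pim1 or Bcl2l1. For the same sets the E-box gave 10.7, 8.27 and 8.57%, and the UPRE 0.992, 0 and 0.674%. The SRE was in 0 of 19 cholesterol promoters and 0.198% of lower genes. These shares were not tested. The Mcm6 promoter is shown as the example that carries the E2F element more than once, with TTTGGCGC in capitals at both places (RefSeq, GRCm38.p6, gene's own strand).
Mcm6, chr1:128359706-128359955, minus strand: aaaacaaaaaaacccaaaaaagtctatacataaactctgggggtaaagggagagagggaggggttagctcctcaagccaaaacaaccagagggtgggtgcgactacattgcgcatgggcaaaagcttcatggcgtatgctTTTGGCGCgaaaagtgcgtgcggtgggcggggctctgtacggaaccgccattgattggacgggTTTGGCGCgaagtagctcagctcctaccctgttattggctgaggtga

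The other cell cycle lists held lower calls as well. Of 33 tested G1 cyclins, kinases and inhibitors 5 were lower, among them Ccne1, Ccne2 and Cdk4 (3 without anti-IL5 replicate 1 or isotype replicate 2), and of 30 S phase checkpoint and repair genes 8 were lower (5 without anti-IL5 replicate 3 or isotype replicate 3). Ccne1, the cyclin that starts S phase, measured 7.45, 9.03 and 6.14 CPM in anti-IL5 libraries, against 17.3, 22.2 and 26.8 CPM in isotype libraries (log2 fold change -1.55 ± 0.30, edgeR adjusted p = 0.00343). Of 63 tested G2/M and mitosis genes 10 were lower, with a median log2 fold change of -0.71, and this count was 2 without anti-IL5 replicate 3, 3 without isotype replicate 3 and 6 without anti-IL5 replicate 1. Mki67, the proliferation marker Ki-67, measured 73.6, 71.4 and 35.2 CPM with anti-IL5, against 111, 109 and 139 CPM with isotype, and missed the threshold (log2 fold change -0.99 ± 0.31, edgeR adjusted p = 0.0593).

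Genes that build ribosomes held many lower calls, and the ribosomal proteins themselves mostly did not pass the test. Of 84 tested ribosome biogenesis genes 24 were lower and 1 was higher (Utp14a), with a median log2 fold change of -0.50, and 13 of the 24 fell below every isotype library of the other stages. Of 84 tested cytosolic ribosomal protein genes 3 were lower and 0 higher, with a median of -0.13, and the lower count was 1 without any 1 anti-IL5 library and 0 without isotype replicate 3. Nop58, a core protein of the particles that methylate ribosomal RNA, measured 6.57, 9.23 and 4.81 CPM in anti-IL5 libraries, against 22.1, 20.4 and 19.2 CPM in isotype libraries (log2 fold change -1.58 ± 0.20, edgeR adjusted p = 6.74e-05). Its partner Nop56 fell by 1.31 ± 0.19 on the log2 scale and the large-subunit assembly factor Rrs1 by 1.40 ± 0.22. The ribosome biogenesis count was 11 without anti-IL5 replicate 3, 13 without isotype replicate 3 and 14 without anti-IL5 replicate 2.

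Serine, glycine and one-carbon enzymes were lower for 9 of 20 tested, with a median log2 fold change of -1.14. That count was 6 without anti-IL5 replicate 3 or isotype replicate 3. Srm, spermidine synthase, measured 8.04, 4.42 and 7.39 CPM with anti-IL5, against 24.8, 34.3 and 43.5 CPM with isotype (log2 fold change -2.37 ± 0.23, edgeR adjusted p = 3.43e-06). The groups were far apart, and all 3 anti-IL5 libraries were below every isotype library of stages I, II and IV. Shmt2, the mitochondrial enzyme that takes a carbon unit from serine, measured 16.1, 9.42 and 8.46 CPM with anti-IL5, against 25.4, 32.9 and 33.3 CPM with isotype (log2 fold change -1.44 ± 0.24, edgeR adjusted p = 0.0012). Phgdh, the entry enzyme of serine synthesis, measured 0.49, 0.769 and 0.979 CPM with anti-IL5, against 1.78, 10.8 and 11.6 CPM with isotype. Isotype replicate 1 was low for it, without overlap between the groups (log2 fold change -3.43 ± 0.66, edgeR adjusted p = 0.00362). Of 43 tested amino acid response and aminoacyl-tRNA synthetase genes 8 were lower, a count of 2 to 4 without any 1 library but isotype replicate 2.

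Among mitochondrial genes the lower calls lay mostly in import and in the mitochondrial ribosome. Of 32 tested import and chaperone genes 7 were lower, among them Hspe1 and C1qbp (4 without anti-IL5 replicate 1 or 3, 3 without isotype replicate 3), and of 77 mitochondrial ribosomal proteins 7 were lower (4 without anti-IL5 replicate 2 or 3, 2 without isotype replicate 3). Of 76 tested oxidative phosphorylation genes 2 were lower and 0 higher, a share under that of all genes, and the lower count was 0 without anti-IL5 replicate 2 or 3 or isotype replicate 3.

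Cholesterol synthesis and uptake fell in 12 of 27 tested genes, with none higher and a median log2 fold change of -0.80. Lss, lanosterol synthase, measured 27, 22 and 21.2 CPM in anti-IL5 libraries, against 46.8, 42.7 and 55.7 CPM in isotype libraries (log2 fold change -1.05 ± 0.18, edgeR adjusted p = 0.00134). Abca1, which exports cholesterol, was the 1 call among 12 tested efflux genes and was higher: it measured 9.8, 7.69 and 6.5 CPM with anti-IL5, against 1.53, 2.36 and 1.62 CPM with isotype (log2 fold change 2.10 ± 0.42, edgeR adjusted p = 0.0041). Stard4, a carrier that moves cholesterol between membranes, measured 26, 19.3 and 17.4 CPM with anti-IL5, against 50.9, 48.7 and 38.3 CPM with isotype (log2 fold change -1.14 ± 0.22, edgeR adjusted p = 0.00292). The cholesterol count was 4 without anti-IL5 replicate 3, 7 without isotype replicate 1 and 8 without anti-IL5 replicate 2 or isotype replicate 3.

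Granule protein genes all leaned lower, but few passed the test. Of 8 tested, 2 were lower and 0 higher, and all 8 had a log2 fold change below 0 (median -0.436). The list summed to 17300 to 23300 CPM in anti-IL5 libraries, against 32600 to 43200 CPM in isotype libraries. Its lower count was 0 without anti-IL5 replicate 3 and 1 without isotype replicate 3. Epx, eosinophil peroxidase, measured 5370, 5640 and 3080 CPM in anti-IL5 libraries, against 14200, 12000 and 15300 CPM in isotype libraries, far apart (edgeR adjusted p = 0.00652, and 0.0572 without anti-IL5 replicate 3). Prg3, a major basic protein homologue, fell by 1.21 ± 0.26 on the log2 scale (edgeR adjusted p = 0.00734, and up to 0.0637 without anti-IL5 replicate 3 or isotype replicate 3). Prg2, the major basic protein, measured 12100, 11000 and 9190 CPM with anti-IL5, against 17000, 13100 and 18100 CPM with isotype. All 3 anti-IL5 libraries were lower than the isotype libraries for Prg2, but the difference did not pass (edgeR adjusted p = 0.228). The ribonuclease Ear1 had a log2 fold change of -0.24 ± 0.30 (edgeR adjusted p = 0.697), and reads may be split among near-identical Ear genes. The lipoxygenase Alox15, among the most abundant effector genes, measured 7960, 8030 and 8300 CPM with anti-IL5, against 8400, 9030 and 6160 CPM with isotype, with the anti-IL5 libraries inside the isotype range (log2 fold change 0.04 ± 0.23, edgeR adjusted p = 0.955).

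Of 34 tested effector and lipid mediator genes, 54 lysosome and autophagy genes and 9 genes for sort markers, 0 passed the edgeR test in any of the 3 lists. At an unadjusted p under 0.05 these lists held 5 higher and 8 lower, 1 higher and 4 lower, and 1 higher and 0 lower genes. DESeq2 called 2 higher and 2 lower effector genes, 2 lower lysosome genes and 1 higher sort marker, and limma-voom called 2 higher and 1 lower effector genes, 1 higher and 1 lower lysosome genes and 0 sort markers. Siglecf, the surface lectin of eosinophils, measured 517, 568 and 576 CPM with anti-IL5, against 584, 585 and 431 CPM with isotype. Kit, which encodes CD117 and marks early stages, measured 44.6, 41.1 and 28.4 CPM with anti-IL5, against 10.7, 18.9 and 16 CPM with isotype. These groups did not overlap, but Kit did not pass the test (log2 fold change 1.32 ± 0.46, edgeR adjusted p = 0.0935), and both genes were part of the gate. Ccr3, the eotaxin receptor that rises with maturation, had a log2 fold change of 0.82 ± 0.35 (edgeR adjusted p = 0.172).

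Lineage transcription factors changed in 4 of 36 tested genes, with Gata2, Xbp1 and Runx1 lower and Id2 higher. Gata2, a factor of progenitors, basophils and mast cells, measured 163, 134 and 95.2 CPM in anti-IL5 libraries, against 341, 260 and 529 CPM in isotype libraries (log2 fold change -1.53 ± 0.23, edgeR adjusted p = 0.000329). Isotype replicate 3, which also had the highest basophil marker sum, was the highest library for Gata2. Id2, which blocks DNA binding by E proteins, measured 994, 973 and 992 CPM with anti-IL5, against 533, 538 and 553 CPM with isotype, with very little spread in either group (log2 fold change 0.87 ± 0.17, edgeR adjusted p = 0.00312). Gata1, the factor that specifies eosinophils, had a log2 fold change of 0.29 ± 0.16 (edgeR adjusted p = 0.302), and Cebpe, needed for granule formation, one of -0.06 ± 0.16 (edgeR adjusted p = 0.867).

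Some of the genes that rose belong to movement and adhesion. Of 33 tested adhesion and migration receptors 3 were higher and 0 lower, with a median log2 fold change of 0.30. Itga4, an integrin chain, measured 66.2, 83.6 and 81.9 CPM in anti-IL5 libraries, against 52.9, 47.9 and 36.5 CPM in isotype libraries (log2 fold change 0.75 ± 0.22, edgeR adjusted p = 0.0394). The prostaglandin receptor Ptger4 measured 87.3, 153 and 116 CPM with anti-IL5, against 59.9, 85.9 and 68.1 CPM with isotype (log2 fold change 0.73 ± 0.22, edgeR adjusted p = 0.0447). The groups did not overlap for either gene. All 3 higher genes of the list were also higher at isotype stage IV than at stage II. The list held 0 higher calls without anti-IL5 replicate 2 or 3 or isotype replicate 3, 1 without isotype replicate 1 and 5 without anti-IL5 replicate 1, and Itga4 was also lost without isotype replicate 2 (edgeR adjusted p up to 0.177).

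Part of the response left the range of isotype cells of any other stage. Of the 626 lower genes, 190 (30.4%) had all 3 anti-IL5 libraries below all 8 isotype libraries of stages I, II and IV, against 792 (6.39%) of all genes tested. Of the 163 higher genes, 45 (27.6%) had all 3 above those 8, against 783 (6.32%) of all genes tested. The calls used the same 3 anti-IL5 libraries, which by itself raises both shares above those of all genes. The shares are thus a description and not a test. Among the lower ones with at least 10 CPM were Socs1, Socs2, Bcl2a1a, Sec24d, Srm and Nop58, and among the higher ones Serpinb10, Tgm2, Sntb1, Bcl6 and Plbd1. Sntb1, a syntrophin that anchors membrane proteins to the cytoskeleton, measured 32.6, 34.3 and 35.7 CPM with anti-IL5, against 10.9, 12.3 and 8.72 CPM with isotype at stage III. The log2 fold change was 1.68 ± 0.25 (edgeR adjusted p = 0.000329), and the gene had no call from isotype stage II to IV (log2 fold change -0.46, edgeR adjusted p = 0.184).

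A smaller set ran against maturation. Lower under anti-IL5 although higher at isotype stage IV than at stage II were, among others, C4a, Npl, Lrp12 and Adora2b. C4a, a complement component, measured 2.74, 2.31 and 4.81 CPM in anti-IL5 libraries, against 15.4, 16.4 and 19.6 CPM in isotype libraries, and its level was higher by 6.09 on the log2 scale at isotype stage IV than at stage II. Npl, a sialic acid lyase, measured 6.47, 7.69 and 6.05 CPM with anti-IL5, against 28.1, 18.7 and 30.4 CPM with isotype (log2 fold change -1.93 ± 0.36, edgeR adjusted p = 0.00252). In the other direction, 7 genes were higher under anti-IL5 although they fall with maturation: Serpinb10, Adgrl4, Itgb2l, S100a9, Ctcflos, Ogfrl1 and Msra. Without isotype replicate 3, among others, the calls of Adgrl4, Ctcflos and Ogfrl1 were lost (edgeR adjusted p over the 6 libraries left out up to 0.104, 0.171 and 0.172). Itgb2l, an integrin beta chain of granulocytes, measured 229, 221 and 209 CPM with anti-IL5, against 59.4, 159 and 63.5 CPM with isotype (edgeR adjusted p = 0.015, and up to 0.0955 without isotype replicate 1 or 3). S100a9, a calcium-binding protein abundant in neutrophils, measured 722, 667 and 933 CPM with anti-IL5, against 288, 419 and 419 CPM with isotype, and its call (edgeR adjusted p = 0.0378) was lost without any 1 of the 6 libraries (edgeR adjusted p up to 0.163). The neutrophil marker sum given above moved in the same direction as S100a9, and its part in that difference was not tested.

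The effect of anti-IL5 at stage III was set against its effect at the other stages by testing the difference of the 2 effects. Against stage I the effects differed for 49 genes (0.396%), 4 higher and 45 lower at stage III, against stage IV for 79 genes (0.638%), 12 higher and 67 lower, and against stage II for 0 genes by edgeR (713 at an unadjusted p under 0.05; 0 by limma-voom and 15 by DESeq2). Stage II had 4 libraries, against 6 each at stages I and IV, so the count of 0 there does not show equal effects. The stage I count was 10 without anti-IL5 replicate 3, 16 without anti-IL5 replicate 1 and 19 without isotype replicate 3. The stage IV count was 46 without anti-IL5 replicate 3 and 50 without isotype replicate 3. The carboxypeptidase gene Cpa3, a mast cell and basophil protease that early eosinophil precursors also express, averaged 11.7 ± 2.34 CPM with anti-IL5 and 212 ± 126 CPM with isotype at stage III, against 642 ± 205 and 669 ± 176 CPM at stage I and 12.4 ± 3.02 and 8.26 ± 2.69 CPM at stage IV (SD, n = 3 each). The effect at stage III was lower by 4.12 ± 0.50 on the log2 scale than that at stage I (edgeR adjusted p = 0.000465) and by 4.76 ± 0.54 than that at stage IV (edgeR adjusted p = 0.000272). Cpa3 is also a basophil marker, and the basophil marker sum was lower in the anti-IL5 libraries as given above.

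Man1a, a Golgi mannosidase that trims N-glycans, ran the other way and averaged 78.1 ± 20.5 CPM with anti-IL5 and 26.7 ± 8.65 CPM with isotype at stage III, against 17.8 ± 5.24 and 25.3 ± 3.32 CPM at stage I (SD, n = 3 each). Its effect was higher at stage III than at stage I by 2.05 ± 0.40 on the log2 scale (edgeR adjusted p = 0.0258, and up to 0.0699 without anti-IL5 replicate 3 or isotype replicate 3). Chn2, a Rac-inactivating protein, averaged 15.1 ± 1.05 CPM with anti-IL5 and 5.97 ± 1.55 CPM with isotype at stage III and 35 ± 6.71 and 62 ± 8 CPM at stage IV (SD, n = 3 each). The anti-IL5 libraries were thus above isotype at stage III and below it at stage IV, and the effects differed by 2.16 ± 0.31 on the log2 scale (edgeR adjusted p = 0.0032).

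**Figure D5:**
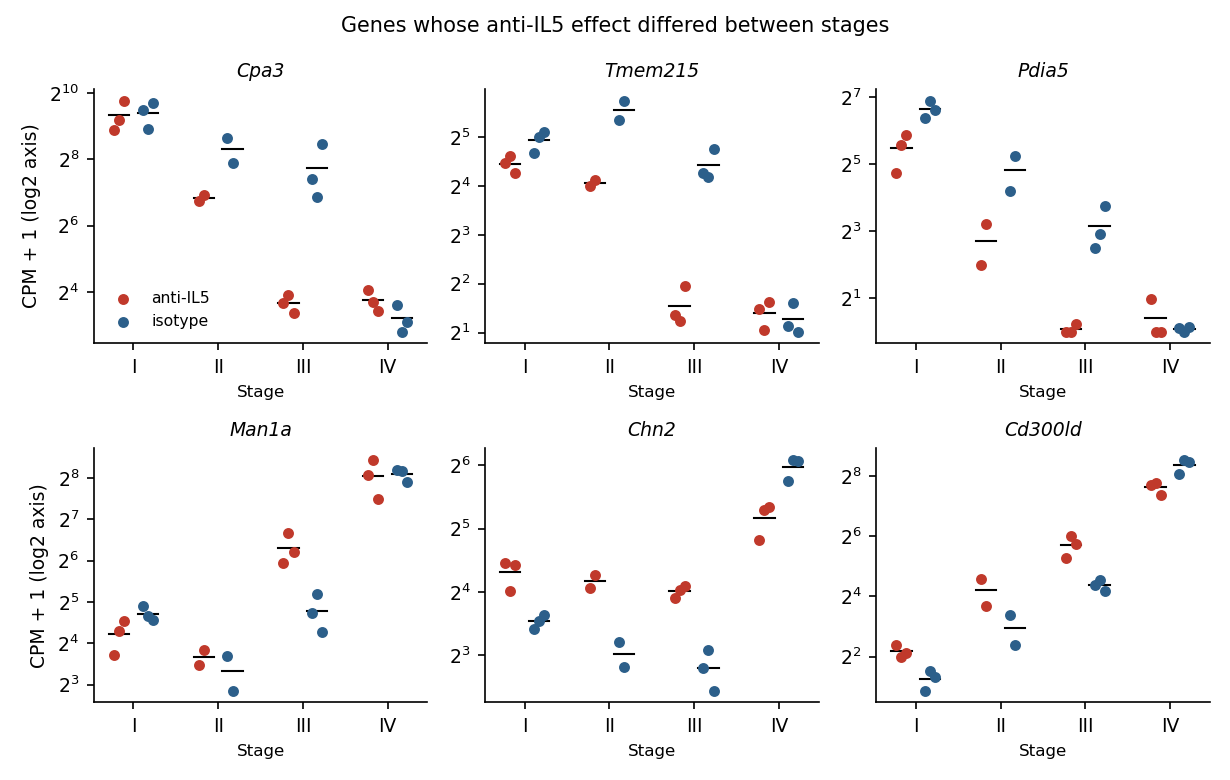
CPM + 1, on a log2 axis, of 6 genes whose anti-IL5 effect at stage III differed from that at stage I or IV, in every anti-IL5 (red) and isotype (blue) library of the 4 stages; black lines are group means of the plotted values. At stage III the anti-IL5 points of Cpa3, Tmem215 and Pdia5 all lie below the isotype points, and at stage IV they do not.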

How the data were processed

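RNA from sorted bone marrow eosinophils was made into libraries with SMART-Seq v4 (17 cDNA cycles) and Nextera XT, per the labels' protocols; no molecular identifiers are named. The authors deposited raw read counts per gene for each library; alignment with STAR 2.6.1a to mm10, and DESeq2, are named in the submitters' processing notes, while the sources used here do not name the counter, the annotation or the strand setting. The 2 lines that name no gene (13.61 to 20.22% and 2.047 to 2.196% of the 6 libraries) were left out. The 24982 genes were filtered (filterByExpr) to 12387 and fitted over 22 libraries in 8 groups of stage and antibody with edgeR 4.0.16 (TMM, robust quasi-likelihood, R 4.3.3), with Benjamini-Hochberg adjustment over all genes tested and calls under 0.05. CPM are TMM-scaled, and a log2 fold change is given with its standard error. The maturation line is the projection of log2 CPM (prior count 2). Intervals and floors cover counting error only. DESeq2 1.42.0, limma-voom (limma 3.58.1), 2 normalizations, 2 filters, a replicate block, the 6 libraries alone and leaving out each library were alternatives. The edgeR step was tested on simulated counts.

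The comparison, gene lists and rules were chosen with earlier results of these data known. Named genes were the 15 largest falls and 15 largest rises among calls with at least 10 CPM and no overlap, and up to 6 called members per list. To these came a fixed set of IL-5 pathway, granule and sort genes and up to the 5 largest differences between stages in each direction. Up to 10 of the most abundant calls and up to 6 calls against maturation in each direction were also named. Dusp6, Bcl2a1b, Canx, Creld2, Phgdh, Abca1, Pan2, Utp14a and Msra lie outside these rules and were chosen after their values were seen. Promoters came from RefSeq (GRCm38.p6), which had an entry for 9792 of the tested genes. Some items are not reported here.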

Additional observations from a re-analysis of the deposited data

Results flagged for a closer look

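Each gene here was singled out because a test of the difference between the anti-IL5 effect at stage III and that at another stage passed (edgeR adjusted p), among the largest such differences in each direction. Between stages III and I the difference of effects, on the log2 scale, was -5.53 for Pdia5, -5.08 for Adam19, -4.50 for Hs3st1, -4.12 for Cpa3 and -2.89 for Tmem215, and it was 1.04 for St6galnac4, 1.33 for Wdr77 and 2.05 for Man1a. Without 1 library the adjusted p reached 0.0837 for Pdia5 (each anti-IL5 library or isotype replicate 3), 0.0824 for Hs3st1 (anti-IL5 replicate 1 or 3 or isotype replicate 3), 0.0699 for Man1a (anti-IL5 replicate 3 or isotype replicate 3) and 0.121 for St6galnac4 (any of the 6). Adam19, a metalloprotease, averaged 5.45 ± 2.89 CPM under anti-IL5 and 0.119 ± 0.147 CPM under isotype at stage I, against 263 ± 66.7 CPM under anti-IL5 and 215 ± 62.2 CPM under isotype at stage III (SD, n = 3 each). The stage I isotype mean lay under the 3-read floor of those libraries, 0.222 to 0.312 CPM, so the size of this difference is uncertain. At stage III itself Adam19 was not called (edgeR adjusted p = 0.583). Wdr77, a partner of the arginine methyltransferase PRMT5, averaged 66.3 ± 6.87 CPM under anti-IL5 and 100 ± 5.56 CPM under isotype at stage I, against 78.7 ± 5.17 CPM under anti-IL5 and 47.3 ± 1.24 CPM under isotype at stage III.

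Between stages III and IV the difference of effects was -5.23 for Kdelr3, -4.76 for Cpa3, -4.75 for Hs3st1, -3.57 for Tmem215 and -3.54 for Ercc6l, and it was 2.12 for Cd300ld, 2.16 for Chn2, 2.35 for Klra2, 3.13 for Cd80 and 4.09 for Vmn2r26. Without 1 library the edgeR adjusted p reached 0.0502 for Kdelr3 (anti-IL5 replicate 2), 0.106 for Ercc6l (any but anti-IL5 replicate 2) and 0.0801 for Cd80 (anti-IL5 replicate 2 or 3 or isotype replicate 1). Cd300ld, a myeloid receptor of the CD300 family, averaged 51.2 ± 12.7 CPM under anti-IL5 and 19.9 ± 2.52 CPM under isotype at stage III, against 198 ± 28.8 and 334 ± 54.9 CPM at stage IV. Klra2, a Ly49 receptor gene whose reads may be shared with its close relatives, averaged 13.3 ± 3.62 CPM under anti-IL5 and 4.35 ± 1.64 CPM under isotype at stage III, against 37.1 ± 5.04 CPM under anti-IL5 and 61.6 ± 3.74 CPM under isotype at stage IV (SD, n = 3 each).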

How the results depend on the processing

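The larger number of lower than higher genes held under every alternative run. The shares of calls that moved as in maturation were 81.3 to 86.9% of lower and 71.8 to 89.6% of higher calls under the alternatives that kept the other stages; the 2 fits of the 6 libraries alone cannot give them. Counts moved more. Of the genes tested, 6.37% were called (1.32% higher, 5.05% lower), against 10.5% by DESeq2 (2.87% higher, 7.67% lower), 4.56% in a fit of the 6 libraries alone (2.83% lower), and 2.49 to 6.82% when 1 library was left out (0.292 to 2.01% higher, 2.2 to 4.8% lower). Higher genes were 20.7% of all calls, 30.8% by limma-voom and 37.9% with the 6 libraries alone. RLE or upper-quartile scaling and other filters kept each count within 1.5 times. The cause of these shifts was not tested.

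Same-numbered libraries correlated at 0.0601, 0.0391 and 0.0449 in their deviations from group means, too little to treat them as pairs, although each correlated best with its own number. With the number as a replicate block, 2.1% of tested genes were higher and 8.23% called, and with the block in the 6 libraries alone 1.86% (0.662% higher, 1.2% lower). The effect at stage III differed from that at stage I for 49 genes, 95 with the replicate block, 252 by DESeq2, 102 by limma-voom and 10 to 64 without 1 library. It differed from that at stage IV for 79 genes, 260 by DESeq2, 27 by limma-voom and 46 to 85 without 1 library, and from that at stage II for 0, and 15 by DESeq2.

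Of the 179 named genes called, 179 kept the call by DESeq2, 165 by limma-voom, 131 with the 6 libraries alone, 88 with the 6 libraries alone and the replicate block, and 108 to 160 without 1 library. With 3 libraries a group the depth limits genes near 0.262 to 0.382 CPM, where 3 reads lie.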
